A study of Mus musculus with 7 samples.

Results

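The SLC25 family of mitochondrial carriers was examined in tibialis anterior (TA) muscle of wild-type (WT) mice and of mice without fast myosin-binding protein-C (C2-/-). Members were taken by name alone, as every gene of the expression table whose symbol begins with Slc25a and a digit. This gave 37 of the 12239 genes in the table. The GENCODE annotation of the mouse genome (GRCm38) holds 47 such symbols. The genes *Slc25a2*, *Slc25a13*, *Slc25a18*, *Slc25a21*, *Slc25a31*, *Slc25a41*, *Slc25a43*, *Slc25a48*, *Slc25a53* and *Slc25a54* were not analysed here.

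SLC25 carriers are nuclear-encoded proteins, most of which sit in the inner mitochondrial membrane and move metabolites between the cytosol and the matrix. In skeletal muscle the best known are the ADP/ATP exchangers and the phosphate carrier, which supply the ATP synthase with its substrates and release the ATP for contraction. Other members carry the intermediates of the malate-aspartate shuttle, acylcarnitines for fat oxidation, amino acids, nucleotides, iron, glutathione and cofactors. A few are placed outside the inner membrane, such as *Slc25a17* in peroxisomes and *Slc25a46* in the outer membrane.

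All libraries came from male mice on the FVBN background, aged 5 to 6 months by their labels, although a supplementary legend of the study gives a younger start of the range. The C2-/- mice lack *Mybpc2* without restriction to a cell type, because a Neo cassette between LoxP sites stands in place of exons 2 to 22, whereas the WT mice carry the intact gene. Messenger RNA was enriched on oligo(dT) beads and sequenced from DNA nanoballs, giving 4 WT and 3 C2-/- libraries. The design text names 4 mice in each group, no source describes pooling, and the p-values measure only the spread between these libraries. TA muscle is a mixed tissue, so fewer cells of a type and less RNA per cell cannot be told apart in these values.

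Carriers share a short signature, namely proline, any residue, an acidic residue, any pair of residues and a basic residue. In the translated coding sequences this signature was found at least once in 35 of the 37 members and 3 times in 20 of them. The predicted proteins ran from 212 to 677 residues, the shortest being those of *Slc25a45* (212) and *Slc25a47* (219). The longest protein-coding transcript of each gene was used, which need not encode its longest protein. These lengths and signature counts therefore depend on the choice of transcript. The coding stretches that follow hold 60 bases around one signature, 5′ to 3′ on the coding strand, with the codons of the signature in capitals. They come from the GENCODE vM21 transcripts of GRCm38. The first pair shows how closely similar proteins, both ADP/ATP exchangers, are written in different codons, since 17 of the 20 codons in the *Slc25a4* stretch end in G or C and 8 of 20 in that of *Slc25a5*. *Slc25a4* is shown from exon 2 of 4 (minus strand, chr8:46209185-46209244) and *Slc25a5* from exon 2 of 4 (plus strand, chrX:36797107-36797166).
Slc25a4: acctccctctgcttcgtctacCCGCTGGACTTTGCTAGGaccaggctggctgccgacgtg
Slc25a5: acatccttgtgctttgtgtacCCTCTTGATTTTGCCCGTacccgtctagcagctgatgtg

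The glutathione carriers *Slc25a39* and *Slc25a40* are shown because they moved in opposite directions. Their stretches lie in exon 8 of 12 in both genes (minus strand, chr11:102404564-102404623, and plus strand, chr5:8443614-8443673), with G or C at the end of 16 and 10 of 20 codons.
Slc25a39: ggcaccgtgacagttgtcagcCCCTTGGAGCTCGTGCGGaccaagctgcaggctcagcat
Slc25a40: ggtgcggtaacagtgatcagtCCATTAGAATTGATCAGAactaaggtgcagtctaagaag

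The mitoferrins *Slc25a28* and *Slc25a37* import iron. Here the codon ends run the other way from the whole transcript: 11 of 20 codons ended in G or C in *Slc25a28* (exon 4 of 4, minus strand, chr19:43664342-43664401), whose transcript holds 60.9% GC, and 17 of 20 in *Slc25a37* (exon 4 of 4, minus strand, chr14:69245053-69245112), whose transcript holds 48.7%.
Slc25a28: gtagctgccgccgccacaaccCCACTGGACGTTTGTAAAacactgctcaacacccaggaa
Slc25a37: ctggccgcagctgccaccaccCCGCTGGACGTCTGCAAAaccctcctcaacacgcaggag

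The last set holds the members past the threshold of the test with and without a correction for GC content, other than *Slc25a4*. These are *Slc25a3* (exon 5 of 8, minus strand, chr10:91118761-91118820), *Slc25a29* (exon 4 of 4, minus strand, chr12:108827279-108827338) and *Slc25a30* (exon 8 of 10, minus strand, chr14:75766960-75767019). Of their 20 codons, 7, 17 and 12 ended in G or C.
Slc25a3: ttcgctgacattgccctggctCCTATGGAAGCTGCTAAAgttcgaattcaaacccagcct
Slc25a29: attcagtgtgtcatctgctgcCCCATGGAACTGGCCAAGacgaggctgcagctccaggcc
Slc25a30: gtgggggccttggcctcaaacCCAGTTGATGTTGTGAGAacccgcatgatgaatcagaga

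Levels are log2 CPM, where CPM is a read count per 1e6 library reads under the authors' scaling, and changes are the C2-/- mean minus the WT mean on that scale. *Mybpc2* itself was 12.61 ± 0.19 (SD, n = 4) in WT and 0.79 ± 1.12 (SD, n = 3) in C2-/-, where 3 to 8 reads remained, so each library matched its label. The libraries held 2613277 to 15464499 reads in the table. WT replicates 1 to 3 were the deepest (14929214 to 15464499 reads), and WT replicate 4 (4683853 reads) lay within the depth range of the C2-/- libraries (2613277 to 4917936). The floor of 3 reads corresponded to 0.195 to 1.12 CPM, depending on the library, and covers counting error only. WT replicate 4 stood apart from the other WT libraries, and depth could be told apart from genotype only through it. The median SD of the 37 members was 0.34 over all WT libraries, 0.16 over WT replicates 1 to 3 and 0.54 over the C2-/- libraries.

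The family was dominated by 2 genes. Per kilobase of transcript, *Slc25a4* (ANT1, the ADP/ATP exchanger of heart and skeletal muscle) reached a mean of 2400 CPM in WT and 3910 CPM in C2-/-, and *Slc25a3* (the phosphate carrier) 831 and 2030 CPM. Together they made up 81.6% ± 2.90 (SD, n = 4) of the summed family level per kilobase in WT and 91.2% ± 1.08 (SD, n = 3) in C2-/-. *Slc25a4* alone held 60.7% ± 2.15 of the sum in WT and 60.1% ± 2.23 in C2-/-, whereas *Slc25a3* held 20.9% ± 1.02 and 31.1% ± 2.79. The summed level itself was 3470, 3300, 3830 and 5180 CPM per kilobase in WT replicates 1 to 4 and 5870, 7770 and 5850 in C2-/- replicates 1 to 3. WT replicate 4 had the highest sum of the WT libraries, and the C2-/- sums all lay above it.

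Next in WT came *Slc25a11* (267 CPM per kilobase), which exchanges oxoglutarate for malate, and *Slc25a12* (112 CPM per kilobase), the aspartate/glutamate carrier of muscle. These held places 3 and 4 of the order in both genotypes. Below them the levels fell to 34.5 CPM per kilobase for the carnitine-acylcarnitine carrier *Slc25a20* and 31.9 for *Slc25a5* (ANT2). The lowest in WT was *Slc25a47*, at 0.727 CPM per kilobase. In C2-/- the lowest was *Slc25a30*, which went from place 33 to place 37 of the 37. In 6 members (*Slc25a1*, *Slc25a10*, *Slc25a30*, *Slc25a34*, *Slc25a45* and *Slc25a47*) no C2-/- library held 10 reads or more.

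**Figure D1:**
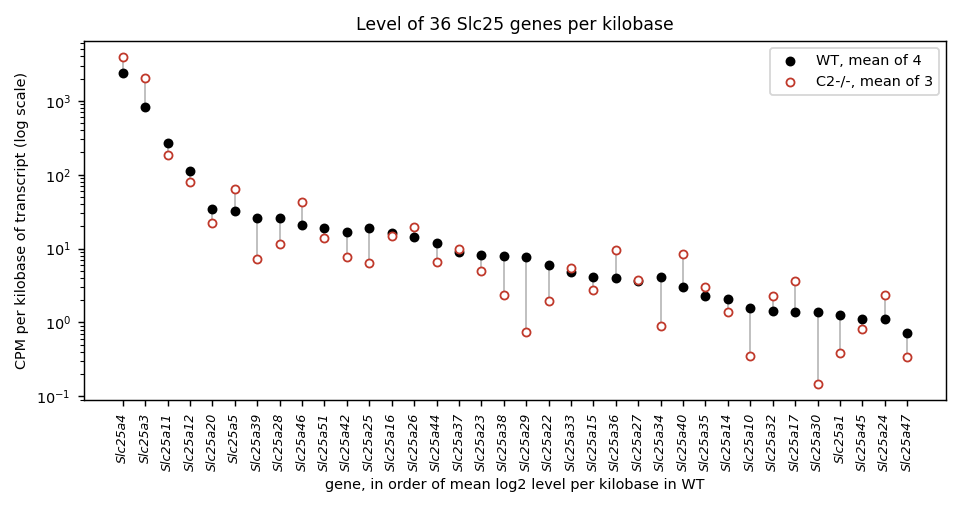
Mean level of 36 Slc25 genes in CPM per kilobase of transcript (log scale), with WT (n = 4) as filled points and C2-/- (n = 3) as open points, ordered by the mean log2 level per kilobase in WT. *Slc25a4* and *Slc25a3* stand above all other members in both genotypes.

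To ask how loss of fast myosin-binding protein-C changed the carriers, limma was fitted to all 12239 genes, and a gene was past the threshold at an adjusted p under 0.05 with a fold change above 1.5 either way. The adjustment (Benjamini-Hochberg) ran over all genes. Of the 37 members, 7 rose and 11 fell in C2-/-, and 19 were not past the threshold. Among all genes 20.2% rose and 25.0% fell, 45.2% in either direction, so the share of members called was near that of all genes. The median log2 change was -0.51 over the members and -0.14 over all genes. Centring each library on its median moved these medians to -0.34 and 0.02 and gave 8 higher and 10 lower members, and the share of higher genes among all genes called went from 44.7% to 54.0%. The C2-/- values lay wholly above the WT values in 8 members (22.6% of all genes) and wholly below in 13 (26.7% of all genes), against 49.3% of all genes on either side.

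Changes in these libraries followed the GC content of the transcripts, so changes are also given after a correction for it. Across the 37 members Pearson's r between GC content and log2 change was -0.69 and Spearman's rho -0.73, against -0.66 and -0.68 across 12178 genes. These are descriptions across genes, which share their libraries. For a second set of values, the trend of the log2 values with GC content was fitted in each library as a smooth curve, and every library was brought to the average curve. After this GC correction 2 members were higher (*Slc25a3*, *Slc25a4*) and 4 lower (*Slc25a12*, *Slc25a16*, *Slc25a29*, *Slc25a30*), where 12.3% of all genes were higher and 8.33% lower (20.6% in either direction). Of the 18 members first called, 4 were called again, each in the same direction. The C2-/- values after correction lay wholly above WT in 6 members (18.0% of all genes) and wholly below in 6 (15.5%), where 33.4% of all genes lay on either side.

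**Figure D2:**
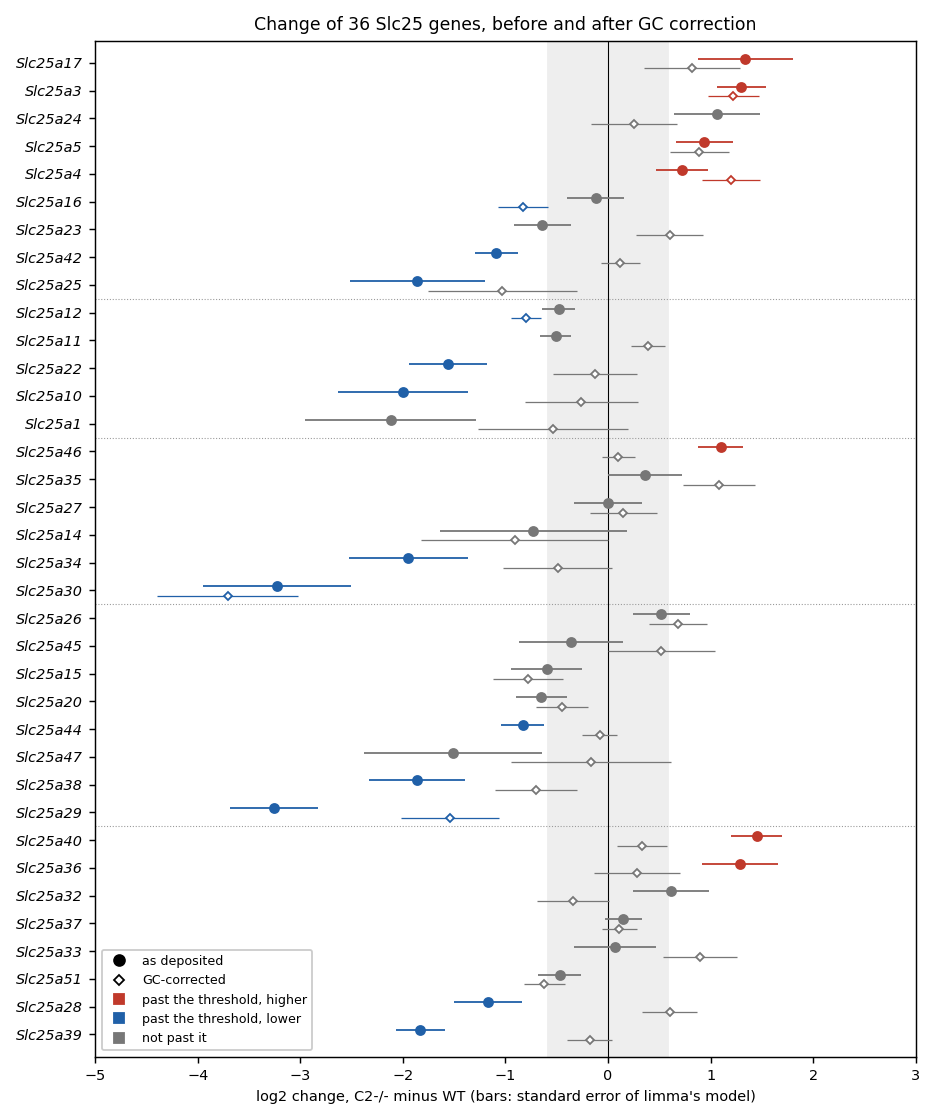
Log2 change (C2-/- minus WT) of 36 members with the standard error of limma's model, as deposited (filled circles) and after GC correction (open diamonds), grouped by substrate. Red and blue mark members past the threshold as higher and lower, and the grey band marks changes under 1.5-fold. Only *Slc25a3*, *Slc25a4*, *Slc25a29* and *Slc25a30* are coloured in both fits.

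The carriers of adenine nucleotides and phosphate held most of the rises, with 4 of 9 measured genes higher, 2 lower and 3 not past the threshold (median log2 change 0.72). After GC correction 2 were higher and 1 lower (median 0.60). Counts by substrate group, here and below, stand beside 20.2% higher and 25.0% lower among all genes. After GC correction those shares were 12.3% and 8.33%. The groups are small, and differences between them were not tested. The phosphate carrier *Slc25a3* had log2 values of 10.17, 10.04, 10.34 and 10.86 in WT and 11.62, 11.97 and 11.36 in C2-/-. All C2-/- values lay above all WT values, and WT replicate 4 was the WT library nearest to them. The gene rose by 1.30 (SE 0.24, limma adjusted p = 0.00221), or 2.46-fold. It stayed past the threshold in all 7 fits that left out 1 library and after GC correction, where the change was 1.22 (SE 0.25, limma adjusted p = 0.00846).

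*Slc25a4* stood at 11.94, 11.92, 12.10 and 12.63 in WT and at 12.67, 13.14 and 12.78 in C2-/-. The groups did not overlap, but WT replicate 4 came very near to the lowest C2-/- library. It rose by 0.72 (SE 0.25, limma adjusted p = 0.0364), and this call was lost without WT replicate 1 (0.65), 2 (0.64) or 3 (0.70) and without C2-/- replicate 2 (0.58) or 3 (0.76), and with limma's trend left out (0.72). GC correction raised the change to 1.20 (SE 0.28, limma adjusted p = 0.0159). The ubiquitous exchanger *Slc25a5* measured 5.34, 4.92, 5.24 and 5.64 in WT and 5.69, 6.81 and 6.16 in C2-/-. Here the C2-/- values again lay above all WT values, by a small margin for replicate 1. It rose by 0.94 (SE 0.28, limma adjusted p = 0.0196), a call lost without WT replicate 2 (0.81) or C2-/- replicate 2 (0.64) and after GC correction (0.89, limma adjusted p = 0.0531). Of the 50-base stretches of the *Slc25a5* transcript, 46.6% also occur in other annotated genes, 29.1% in Gm5560 alone, so its reads are uncertain.

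*Slc25a17*, the peroxisomal carrier of adenine nucleotides and coenzyme A, had log2 values of 1.47, 1.47, 1.36 and 0.77 in WT and 2.10, 3.25 and 2.46 in C2-/-. The groups were apart, at 7 to 42 reads a library. It rose by 1.34 (SE 0.46, limma adjusted p = 0.0374), and the call was lost without WT replicate 1 (1.40), 2 (1.40), 3 (1.37) or 4 (1.17), without C2-/- replicate 2 (1.01) or 3 (1.41), with library quality weights, with the replicate block (1.17) and after GC correction (0.82). *Slc25a24*, a calcium-regulated ATP-Mg/phosphate carrier, had a change of 1.06 (limma adjusted p = 0.0593), and it passed the threshold without C2-/- replicate 1 (1.38) and with several other settings, such as median centring (1.22) and voom (1.03), whereas the change was 0.25 after GC correction (limma adjusted p = 0.705).

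The other calcium-regulated carriers of this kind are *Slc25a25* and *Slc25a23*. *Slc25a25* stood at 5.86, 5.46, 4.96 and 7.06 in WT and at 2.59, 3.73 and 5.61 in C2-/-. The groups overlapped, and both spread over more than 2 log2 units. It fell by 1.86 (limma adjusted p = 0.041), a call lost without WT replicate 1 (-1.85), 2 (-1.98) or 4 (-1.45), without C2-/- replicate 1 (-1.16) or 2 (-1.74), after GC correction (-1.03), with median centring (-1.70), with voom (-1.53) and with limma's trend left out (-1.86). *Slc25a23* had a change of -0.64 (limma adjusted p = 0.0857), which turned to 0.60 after GC correction. The coenzyme A carrier *Slc25a42* measured 5.93, 5.68, 5.93 and 5.31 in WT and 4.68, 4.48 and 4.72 in C2-/-. No C2-/- library reached the lowest WT value, that of WT replicate 4. *Slc25a42* fell by 1.09 (SE 0.21, limma adjusted p = 0.00306), a call kept in every leave-one-out fit, but the change was 0.12 after GC correction (limma adjusted p = 0.671). Its relative *Slc25a16* had a change of -0.12 (limma adjusted p = 0.746), and after GC correction it was past the threshold at -0.83 (SE 0.24, limma adjusted p = 0.0325).

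**Figure D3:**
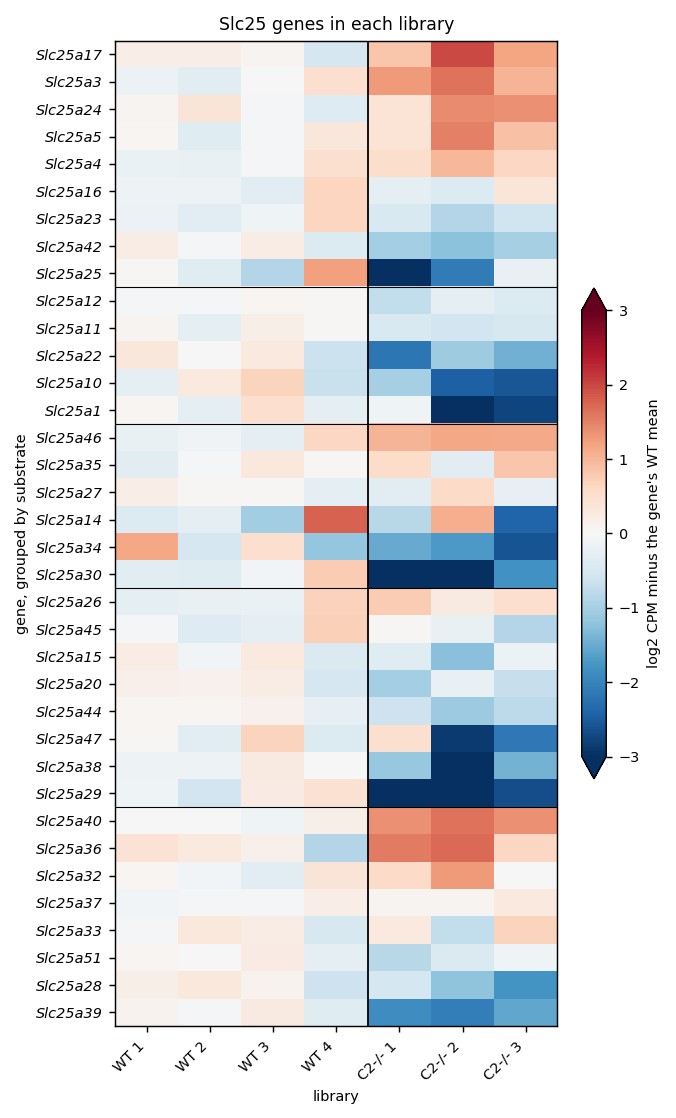
Log2 CPM of 36 members in each of the 7 libraries minus the mean of the gene over the 4 WT libraries (colour scale limited to 3 either way), grouped by substrate. WT replicate 4 differs from the other WT libraries in many members, and *Slc25a29*, *Slc25a30* and *Slc25a39* are low in all 3 C2-/- libraries.

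None of the 5 measured carriers of di- and tricarboxylates, aspartate and glutamate was higher, and 2 were lower (median log2 change -1.56). After GC correction 1 was lower, *Slc25a12* in place of *Slc25a10* and *Slc25a22* (median -0.26). *Slc25a11* measured 8.91, 8.55, 8.99 and 8.85 in WT and 8.37, 8.25 and 8.33 in C2-/-, and *Slc25a12* measured 9.40, 9.43, 9.52 and 9.51 in WT and 8.74, 9.18 and 9.05 in C2-/-. Both carriers of the malate-aspartate shuttle were lower in every C2-/- library than in any WT library. Their changes of -0.51 (limma adjusted p = 0.0226) and -0.48 (limma adjusted p = 0.0299) were under 1.5-fold and so not past the threshold. *Slc25a11* passed it without WT replicate 2 (-0.60), and its change turned to 0.39 after GC correction. *Slc25a12* passed it after GC correction, with a change of -0.80 (SE 0.15, limma adjusted p = 0.0067).

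The glutamate carrier *Slc25a22* stood at 4.34, 4.02, 4.30 and 3.37 in WT and at 1.85, 2.94 and 2.56 in C2-/-. The groups did not overlap, at 10 to 28 reads in the C2-/- libraries. It fell by 1.56 (SE 0.38, limma adjusted p = 0.00808) in the deposited values, whereas the GC-corrected change was -0.13. The dicarboxylate carrier *Slc25a10* had values of 1.33, 1.92, 2.28 and 0.95 in WT and 0.63, -0.83 and -0.95 in C2-/-. These C2-/- values rest on 4, 1 and 2 reads, and an opposite-strand gene, Gm11788, overlaps 11.3% of its exonic bases. *Slc25a10* fell by 2.00 (limma adjusted p = 0.0258), a call lost without WT replicate 1 (-2.10), 2 (-1.90) or 3 (-1.78), without C2-/- replicate 3 (-1.72), with quantile normalization (-1.16) and after GC correction (-0.26). The citrate carrier *Slc25a1* had a change of -2.12 (limma adjusted p = 0.0591) with 5, 0 and 1 reads in C2-/-, and it passed the threshold without C2-/- replicate 1 (-3.11) and with voom (-2.18). Its change was -1.44 without C2-/- replicate 2, -0.78 with quantile normalization, -1.12 with a prior count of 2 and -0.54 after GC correction (limma adjusted p = 0.631), none of these past the threshold.

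Among the 8 measured carriers of amino acids, ornithine, carnitine, glycine and S-adenosylmethionine, 3 fell and none rose (median log2 change -0.74), and after GC correction 1 was lower (median -0.31). *Slc25a29*, a carrier of basic amino acids, had log2 values of 3.76, 3.33, 4.15 and 4.35 in WT and 0.27, 0.39 and 1.25 in C2-/-. The highest C2-/- value was more than 2 log2 units below the lowest WT value, and the C2-/- libraries held 3, 3 and 11 reads. *Slc25a29* fell by 3.26 (SE 0.43, limma adjusted p = 0.000544), or 9.59-fold. The call was kept in all leave-one-out fits. After GC correction the change was -1.54 (SE 0.48, limma adjusted p = 0.047), and without WT replicate 4 as well it was -1.25 and not past the threshold.

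*Slc25a38*, which imports glycine for haem synthesis, measured 3.66, 3.66, 4.09 and 3.81 in WT and 2.67, 0.75 and 2.40 in C2-/-. All C2-/- values were below all WT values, with C2-/- replicate 2 the lowest at 4 reads. It fell by 1.86 (SE 0.47, limma adjusted p = 0.00948), and the GC-corrected change was -0.70 (limma adjusted p = 0.238). The branched-chain amino acid carrier *Slc25a44* ranged from 5.16 to 5.53 in WT and from 4.30 to 4.79 in C2-/-, and it fell by 0.83 (SE 0.21, limma adjusted p = 0.00928), with -0.08 after GC correction.

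The carnitine-acylcarnitine carrier *Slc25a20* stood at 6.07, 6.04, 6.14 and 5.42 in WT and at 4.90, 5.69 and 5.23 in C2-/-. WT replicates 1 to 3 were above all C2-/- libraries, whereas WT replicate 4 lay among them. The change was -0.65 (SE 0.25, limma adjusted p = 0.0551), and it passed the threshold without WT replicate 4 (-0.81) or without C2-/- replicate 2 (-0.85), and was -0.45 after GC correction (limma adjusted p = 0.225). The ornithine carrier *Slc25a15* (-0.60), *Slc25a45* (-0.36) and *Slc25a47* (-1.51) were not past the threshold, nor were they after GC correction (-0.78, 0.52 and -0.17). *Slc25a15* was -0.27 without C2-/- replicate 2. *Slc25a47* passed the threshold without C2-/- replicate 1 (-2.50) and was near 0 with quantile normalization (0.03). Over the leave-one-out fits *Slc25a47* ran from -2.50 to -0.83 and *Slc25a45* from -0.56 to -0.10. The S-adenosylmethionine carrier *Slc25a26* had a change of 0.52 (0.68 after GC correction, and 0.93, past the threshold, when WT replicate 4 was left out as well), passed the threshold without WT replicate 4 (0.75), and shares 7.5% of its exonic bases with *Lrig1* on the opposite strand.

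The carriers of iron, glutathione and cofactors moved both ways, with 2 of 9 higher and 2 lower (median log2 change 0.07), and after GC correction none was past the threshold (median 0.28). *Slc25a39* measured 5.54, 5.39, 5.71 and 5.07 in WT and 3.57, 3.36 and 3.87 in C2-/-. Its relative *Slc25a40* measured 3.08, 3.08, 2.96 and 3.27 in WT and 4.47, 4.72 and 4.46 in C2-/-. Neither gene showed any overlap between the groups, and their spread within a group was small. *Slc25a39* fell by 1.83 (SE 0.24, limma adjusted p = 0.00055) and *Slc25a40* rose by 1.45 (SE 0.25, limma adjusted p = 0.00185). Both calls were kept in every leave-one-out fit. After GC correction their changes were -0.18 and 0.33 and neither was past the threshold. Their transcripts hold 59.7% and 39.7% GC, and 10.3% of the 50-base stretches of *Slc25a40* also occur in Gm5066.

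Mitoferrin 2, *Slc25a28*, had log2 values of 5.43, 5.57, 5.37 and 4.65 in WT and 4.74, 4.06 and 3.47 in C2-/-. WT replicate 4 lay just below the highest C2-/- library. It fell by 1.17 (SE 0.33, limma adjusted p = 0.0168), a call lost without WT replicate 2 (-1.06) or C2-/- replicate 3 (-0.86), and the change turned to 0.60 after GC correction. Mitoferrin 1, *Slc25a37*, stood at 5.14, 5.18, 5.15 and 5.41 in WT and at 5.30, 5.30 and 5.51 in C2-/-. The groups overlapped, and its levels varied less over the 7 libraries than those of *Slc25a28*. The change was 0.15 (SE 0.18, limma adjusted p = 0.507) and 0.11 after GC correction.

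The pyrimidine nucleotide carrier *Slc25a36* measured 4.73, 4.59, 4.45 and 3.40 in WT and 5.86, 5.99 and 4.90 in C2-/-. The groups were apart, with C2-/- replicate 3 close to WT replicate 1 and WT replicate 4 the lowest. It rose by 1.29 (SE 0.37, limma adjusted p = 0.0175), a call lost without C2-/- replicate 1 (1.15) or 2 (1.09) and after GC correction (0.28), and 11.8% of its 50-base stretches also occur in Gm13217. Its relative *Slc25a33* had a change of 0.07, and of 0.90 after GC correction (limma adjusted p = 0.0986), where all C2-/- values lay above all WT values, and 14.9% of its exonic bases are overlapped by Gm13068 on the opposite strand. The FAD and folate carrier *Slc25a32* (0.61) and the NAD carrier *Slc25a51* (-0.47) were not past the threshold, nor were they after GC correction (-0.34 and -0.62). *Slc25a51* passed it without C2-/- replicate 3 (-0.63) and with GC correction without WT replicate 4 (-0.72). Over the leave-one-out fits *Slc25a51* ran from -0.63 to -0.29 and *Slc25a32* from 0.28 to 0.92.

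The last group joins relatives of the uncoupling proteins and carriers without an agreed substrate, of which 1 of 6 rose and 2 fell (median log2 change -0.36). After GC correction 1 was lower (median -0.20). *Slc25a30*, a relative of the uncoupling proteins, had log2 values of 1.93, 1.89, 2.16 and 3.01 in WT and -0.95, -2.42 and 0.43 in C2-/-. The WT libraries held 35 to 68 reads and the C2-/- libraries 1, 0 and 6, with no overlap in level. *Slc25a30* fell by 3.23 (SE 0.72, limma adjusted p = 0.00553). At 45.4% GC it was the single lower member among the 12 members under 48% GC, and its change after GC correction was -3.71 (SE 0.69, limma adjusted p = 0.00641). It kept its call in every leave-one-out fit, from -3.93 to -2.51. The change was smaller with a prior count of 2 (-2.17) and with quantile normalization (-2.40), the call being kept in both. Its size is thus uncertain at so few reads.

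*Slc25a34* stood at 4.37, 2.72, 3.73 and 2.07 in WT and at 1.71, 1.49 and 0.63 in C2-/-. All C2-/- values were below the WT values, among which the spread was over 2 log2 units. It fell by 1.95 (limma adjusted p = 0.0205), a call lost without WT replicate 1 (-1.56) or 3 (-1.78), without C2-/- replicate 3 (-1.63) and after GC correction (-0.49). *Slc25a46*, an outer membrane protein that acts in mitochondrial fusion and fission, measured 6.24, 6.35, 6.18 and 7.08 in WT and 7.48, 7.62 and 7.59 in C2-/-. The C2-/- libraries agreed closely and all lay above WT replicate 4. *Slc25a46* rose by 1.10 (SE 0.22, limma adjusted p = 0.00339), kept in all leave-one-out fits, and had a change of 0.10 after GC correction. An opposite-strand gene, B930094E09Rik, overlaps 8.6% of its exonic bases. *Slc25a14* (-0.73), *Slc25a27* (0.00) and *Slc25a35* (0.36) were not past the threshold, nor were they after GC correction (-0.91, 0.15 and 1.08). *Slc25a35* was 0.11 without C2-/- replicate 3 and 0.70 without C2-/- replicate 2, and its GC-corrected C2-/- values (limma adjusted p = 0.0505) all lay above those of WT, and it passed the threshold when WT replicate 4 was left out as well (1.15). *Slc25a14* turned to 0.12 without C2-/- replicate 3, and *Rangrf* on the opposite strand overlaps 31.6% of the exonic bases of *Slc25a35*.

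**Figure D4:**
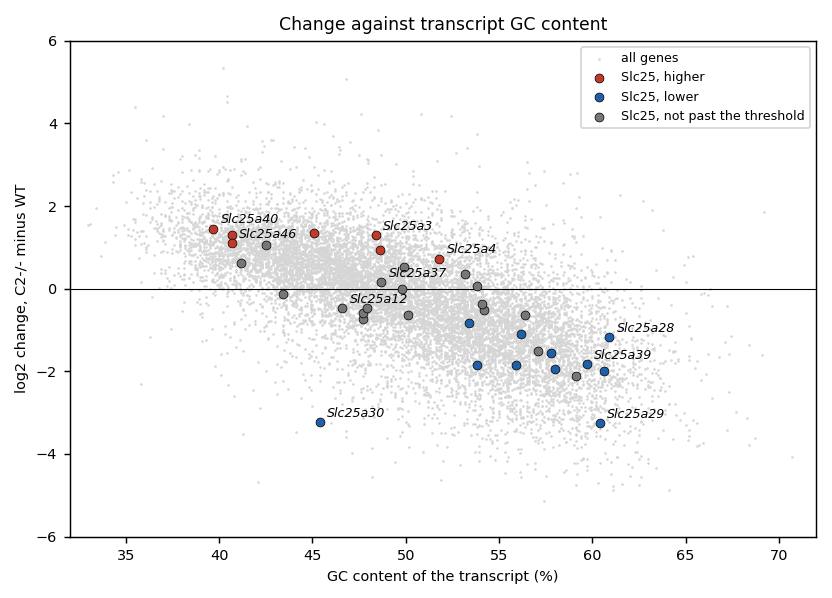
Log2 change (C2-/- minus WT) against transcript GC content for all genes with a GC value (grey) and for 36 members, coloured by their side of the threshold. The rises lie at or below 51.8% GC and the falls at or above 53.4%, except *Slc25a30* at 45.4%.

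Members were then set beside other genes of like GC content. Of the 12 members under 48% GC, 4 rose and 1 fell (median log2 change 0.25), and among all 4654 genes in this range 42.1% rose and 2.77% fell (median 0.71). Between 48% and 55% GC, 3 of 13 rose and 2 fell (median 0.07), against 9.78% and 26.3% of all genes (median -0.42). At 55% GC or more, none of 12 rose and 8 fell (median -1.69), against 2.12% and 57.7% (median -1.42). The 3 rises of the middle range were *Slc25a3*, *Slc25a4* and *Slc25a5*. After GC correction r across the members was 0.04 and rho -0.01.

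Differences between related carriers were compared within each library, since these do not depend on the scaling between libraries. The exact permutation test (two-sided, 35 ways to divide 7 libraries into 4 and 3) cannot give a p under 0.0286, and p-values were adjusted over the 7 pairs measured. *Slc25a39* minus *Slc25a40* was 2.47, 2.32, 2.75 and 1.80 in WT and -0.90, -1.36 and -0.60 in C2-/-. Per kilobase, *Slc25a39* was thus 8.31-fold above *Slc25a40* in WT, whereas the ratio was 1.17 in favour of *Slc25a40* in C2-/-. The difference of -3.28 did not pass after adjustment (exact permutation p = 0.0286, adjusted p = 0.1), and it was -0.51 after GC correction (exact permutation p = 0.0571). *Slc25a24* minus *Slc25a25* was -3.93 ± 1.14 (SD, n = 4) in WT and -1.01 ± 1.15 (SD, n = 3) in C2-/-, without overlap (exact permutation p = 0.0286, adjusted p = 0.1), and its change of 2.92 went to 1.28 after GC correction.

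The 5 other pairs overlapped between the groups. *Slc25a4* minus *Slc25a5* was 6.86 ± 0.19 (SD, n = 4) in WT and 6.64 ± 0.33 (SD, n = 3) in C2-/-, so that *Slc25a4* stood 74.8-fold and 64.3-fold above *Slc25a5* per kilobase (exact permutation p = 0.314). *Slc25a28* minus *Slc25a37* was 0.30, 0.39, 0.22 and -0.76 in WT and -0.56, -1.25 and -2.04 in C2-/-. WT replicate 4 sat among the C2-/- libraries for this pair, whose change of -1.32 (exact permutation p = 0.0857, adjusted p = 0.15) turned to 0.49 after GC correction. *Slc25a33* minus *Slc25a36* changed by -1.22 (exact permutation p = 0.0857), *Slc25a14* minus *Slc25a30* by 2.50 (exact permutation p = 0.171) and *Slc25a23* minus *Slc25a25* by 1.22 (exact permutation p = 0.2). These 3 values moved with single libraries. *Slc25a33* minus *Slc25a36* was -0.61 without C2-/- replicate 2 and -1.85 without C2-/- replicate 3. *Slc25a14* minus *Slc25a30* went to 0.89 and 4.05 without the same libraries, and *Slc25a23* minus *Slc25a25* to 0.44 without C2-/- replicate 1 and 2.01 without C2-/- replicate 3. The pair of *Slc25a12* with *Slc25a13* was not analysed here.

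**Figure D5:**
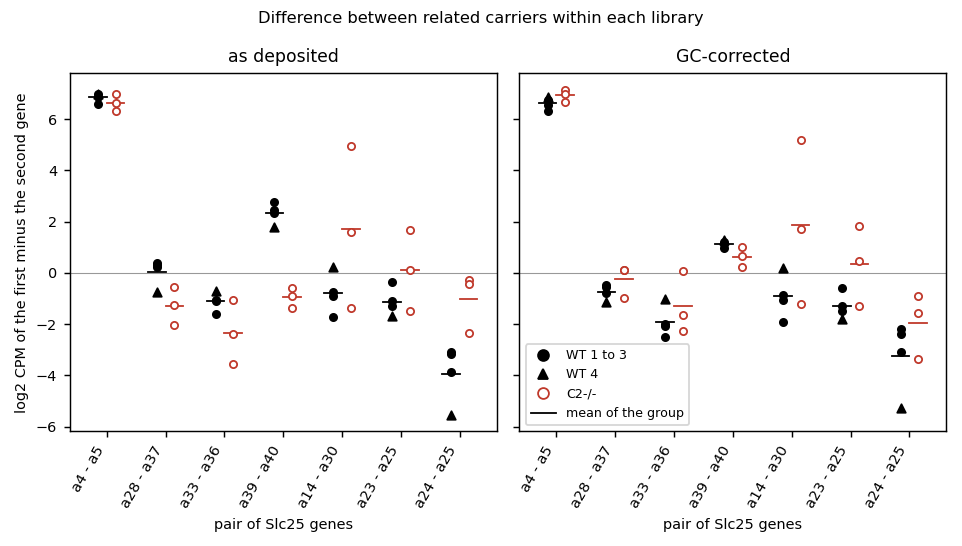
Log2 CPM of one carrier minus that of its relative within each library, as deposited (left) and after GC correction (right), for 7 pairs. Filled marks are WT (the triangle is replicate 4), open marks are C2-/- and lines are group means. The pairs a39 - a40 and a24 - a25 are apart between the groups on the left, and no pair is apart on the right.

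WT replicate 4 allows a comparison at like depth. Measured against WT replicate 4 alone, all 18 members past the threshold had the direction found against WT replicates 1 to 3, as did 32 of all 37 and 10041 of the 12239 genes in the table. Both comparisons use the same C2-/- libraries, and the calls used WT replicate 4, so this is a description. The C2-/- means differed from WT replicate 4 by a median of 0.75 in absolute log2 value, and from replicates 1 to 3 by 0.93. In 13 members, 4 of them past the threshold, the level in WT replicate 4 was closer to that in C2-/- than to that in WT replicates 1 to 3. Without WT replicate 4 the test called 7 members higher and 11 lower. With the GC correction as well, 6 were higher and 4 lower, *Slc25a5*, *Slc25a23*, *Slc25a26* and *Slc25a35* being added to the rises, *Slc25a51* added to the falls and *Slc25a29* lost from them.

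Other genes of mitochondrial transport, listed by function, were read in the same fit. Their counts stand beside 20.2% higher and 25.0% lower among all genes (12.3% and 8.33% after GC correction). Whether any list differed from all genes was not tested. Of the carrier family genes with other symbols, 1 of 4 was lower and none higher. This was *Mtch1*, an outer membrane relative of the carriers, which fell by 2.63 (limma adjusted p = 0.000302) and by 0.84 after GC correction (limma adjusted p = 0.0284). With GC correction and the replicate block *Mtch1* was at -0.72 and not past the threshold. *Mtch2* (0.25), *Ucp3* (-0.51) and *Ucp2* (-0.26) were not past the threshold. Each turned sign after GC correction (-0.13, 0.07 and 0.77), again not past it. *Ucp2* passed it with GC correction when WT replicate 4 was left out as well (0.92, limma adjusted p = 0.0379). Of 15 genes that import carriers or other proteins, 2 rose and 3 fell (1 and 2 after GC correction). *Tomm5* (-1.74, and -1.99 after GC correction), *Timm13* (-2.51 and -1.03) and *Timm8b* (0.66 and 0.80) were past the threshold in both fits. The uncorrected call of *Timm8b* was lost without WT replicate 1, 2 or 3 and without C2-/- replicate 1 or 3. The receptor for carrier precursors *Tomm70a* rose by 0.62 (limma adjusted p = 0.016) and had -0.39 after GC correction. Its call was lost without WT replicate 4 (0.57) or C2-/- replicate 2 (0.53) or 3 (0.56). The call was also lost with quantile normalization (0.44), with library quality weights (0.51) and with the replicate block (0.57).

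Of 20 other mitochondrial membrane transporters, 5 rose and 6 fell (5 and 2 after GC correction). Of the pores of the outer membrane, 1 was past the threshold, with *Vdac1* at -0.30 (not past the threshold), *Vdac2* higher by 0.75 (limma adjusted p = 0.0067; 0.48 and not past the threshold with quantile normalization) and *Vdac3* at -0.43 (under 1.5-fold; past the threshold at -0.68 with quantile normalization). After GC correction *Vdac2* was still past the threshold (0.83, limma adjusted p = 0.0127) and *Vdac3* was lower by 0.86 (limma adjusted p = 0.00407). *Vdac1* turned to 0.07 there and was not past it. The pyruvate carrier subunit *Mpc2* rose by 1.16 (limma adjusted p = 0.0116), and by 1.89 after GC correction (limma adjusted p = 0.0071).

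Of 14 enzymes that work with the carriers, 1 rose and 6 fell (1 and 2 after GC correction). Citrate synthase, *Cs*, fell by 0.88 (limma adjusted p = 0.00404) and by 0.63 after GC correction (limma adjusted p = 0.0235). The mitochondrial malate dehydrogenase *Mdh2* (0.04) and creatine kinase *Ckmt2* (-0.11) were not past the threshold, although *Mdh2* was higher by 1.14 after GC correction (limma adjusted p = 0.00553). The small change of *Ckmt2* turned to 0.15 after GC correction and ran from -0.27 to 0.08 in the leave-one-out fits. The cytosolic malate dehydrogenase *Mdh1* rose by 0.86 (limma adjusted p = 0.0104; 0.42 after GC correction). Of 6 regulators of mitochondrial genes, 3 rose and 1 fell (1 and 0 after GC correction). The coactivator *Ppargc1a* rose by 1.61 (limma adjusted p = 0.00368) and had 0.70 after GC correction (limma adjusted p = 0.101). With GC correction and without WT replicate 4 *Ppargc1a* was past the threshold (0.92, limma adjusted p = 0.0185). The nuclear receptor *Esrra* fell by 2.42 (limma adjusted p = 0.000989) and had -0.57 after GC correction. *Gabpa* rose by 0.69 (-0.25 after GC correction), a call lost without WT replicate 2 (0.60), with quantile normalization (0.55) and with thinned reads (0.57). *Tfam* rose by 0.63 (0.09 after GC correction), a call lost without WT replicate 1 (0.63), 2 (0.58) or 3 (0.56), without C2-/- replicate 2 (0.58) or 3 (0.53), with quantile normalization (0.52) and with limma's trend left out (0.63).

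Markers of the cell types in the muscle were read beside these results, and their part in them was not tested. Among all genes 20.2% were higher and 25.0% lower (12.3% and 8.33% after GC correction). Fast fibre genes were abundant in every library and fitted the labelled tissue, with *Myh4* at 15.55 ± 0.24 (SD, n = 4) in WT and 15.33 ± 0.12 (SD, n = 3) in C2-/-. Of 9 fast fibre markers 5 fell and none rose (median log2 change -1.01), whereas 2 were lower and 1 higher after GC correction (median -0.06). Their summed level as deposited was 153000 to 189000 CPM in WT and 83100 to 103000 CPM in C2-/-. Of 7 slow fibre markers none was past the threshold (1 higher after GC correction), with sums of 44.8 to 126 CPM in WT and 70.5 to 107 CPM in C2-/-, and the defining *Myh7* had 0 reads in every C2-/- library. It also had 0 reads in WT replicate 4, and 16 to 27 in the deeper WT replicates 1 to 3. The change of *Myh7*, -2.27, was not past the threshold (limma adjusted p = 0.107). Of the other slow fibre markers *Myoz2* (1.41), *Atp2a2* (0.35), *Tnnt1* (0.29) and *Myh7b* (0.07) were higher and *Myl3* (-0.94) and *Tnnc1* (-0.31) lower. Only *Atp2a2* was past the threshold after GC correction (0.66, limma adjusted p = 0.0397). Fibroblast markers (4 of 5 higher, 2 after GC correction) summed to 356 to 545 CPM in WT and 1280 to 1440 CPM in C2-/-, and adipocyte markers (1 of 4 higher, *Fabp4*, and after GC correction 1 higher, *Plin1*) to 159 to 365 and 471 to 633 CPM. The adipocyte sums rest on *Fabp4*, at log2 7.28 to 8.48 in WT and 8.85 to 9.30 in C2-/-. Its change of 1.47 went to 0.41 after GC correction (limma adjusted p = 0.222). *Adipoq*, *Plin1* and *Cfd* had at most 57 reads in any library and were not past the threshold as deposited. These sums are thus close to a reading of *Fabp4* alone. Macrophage markers (2 of 6 higher, 1 after GC correction) overlapped between the groups at 47.6 to 65.1 and 60.6 to 100 CPM. Endothelial markers (1 of 5 higher, 1 lower, none after GC correction) were at 308 to 451 and 255 to 335 CPM, and Schwann cell markers (1 of 4 lower, none after GC correction) at 32.8 to 73.4 and 32.5 to 57.3 CPM. Of the erythroid markers *Alas2* was the single one measured, and it fell by 1.52 (limma adjusted p = 0.0207; -0.79 after GC correction), a call lost without WT replicate 1 (-1.47), 2 (-1.52) or 3 (-1.52), with quantile normalization (-1.07) and with the replicate block (-1.57).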

How the data were processed

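RNA sequencing of TA muscle from 4 WT and 3 C2-/- mice was used. Per the labels and the study's methods, the authors aligned reads to GRCm38.p6 with HISAT, counted them per gene with featureCounts 1.5.2, scaled them with edgeR's TMM factors and deposited log2 values for 12239 genes. How multiply mapped reads were counted, and whether strand was used, are not given in the sources used here. A second deposited table holds the authors' own fold changes and p-values and was not used. Each deposited log2 value was the log2 of a whole read count plus 0.5 in CPM of the effective library size (100% whole within 0.0001 reads), so a fall to few reads is understated.

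The 37 members and all gene lists were chosen with earlier results of these data known. Groups came from the sample titles. limma 3.58.1 (R 4.3.3, mean-variance trend) was fitted to the deposited log2 values of all genes, two-sided, with Benjamini-Hochberg adjustment. This step was tested on simulated reads, drawn with the same dispersion in all libraries and without a GC trend. That test therefore does not cover the GC trend or the unequal spread of these libraries. Of the members 36 are named, and 1 that is not reported here stays in the fits and counts. Per-library values are given for 11 members chosen by function and for the 8 largest rises and 8 largest falls past the threshold whose higher group had a mean log2 value of 1 or more (only 7 members rose). Other lists are given by counts, with values for at most 4 genes each, those highest in level. Slow fibre markers and import genes are exceptions. *Myh7* was named after its values were seen, and the other slow fibre markers were then given beside it. The import genes past the threshold in both fits were also named after their values were seen.

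Transcript GC content (1 transcript a gene, GENCODE vM21, 12178 genes or 99.5%) was corrected with a natural spline of 5 degrees of freedom in each library. Positions, coding stretches and shared 50-base stretches came from the same annotation. Replicate numbers are shared between the groups but nothing says that they pair animals. Correlations of same-numbered libraries' deviations were -0.05 to -0.02 over replicates 1 to 3. Alternatives were median centring, quantile normalization, a mean log2 value of at least 3, a prior count of 2, no trend, library quality weights, voom, thinned reads, GC correction, a replicate block, other thresholds and leaving out each library.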

Additional observations from a re-analysis of the deposited data

Results flagged for a closer look

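In 44 groups of WT values (the 37 members and 7 pairs), a library was picked out where the distance to its neighbour, divided by the range of the 4 values, exceeded Dixon's critical value of 0.829. Chance picks about 1 in 20 groups, or 2.2 of 44, and 5 were picked, each of them WT replicate 4. *Slc25a17* stood at 0.77 in this library (other WT 1.36 to 1.47, C2-/- 2.10 to 3.25), so that it lay away from C2-/-. *Slc25a20* stood at 5.42 (other WT 6.04 to 6.14, C2-/- 4.90 to 5.69), *Slc25a26* at 5.41 (other WT 4.42 to 4.53, C2-/- 5.00 to 5.49) and *Slc25a37* at 5.41 (other WT 5.14 to 5.18, C2-/- 5.30 to 5.51), each within the C2-/- range. *Slc25a28* minus *Slc25a37* was -0.76 (other WT 0.22 to 0.39, C2-/- -2.04 to -0.56), also within that range.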

How the results depend on the processing

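Of the 18 members past the threshold, 10 (*Slc25a3*, *Slc25a22*, *Slc25a29*, *Slc25a30*, *Slc25a38*, *Slc25a39*, *Slc25a40*, *Slc25a42*, *Slc25a44* and *Slc25a46*) were called in all 7 leave-one-out fits and, where they were tested, in every other fit without GC correction or a stricter p. *Slc25a29* and *Slc25a30* were removed by the mean log2 value of at least 3 and had no value there. The GC correction moved the counts most, from 7 higher and 11 lower to 2 and 4, and with it 4 of the 18 were called. With GC correction and the replicate block the counts were 5 and 4, and with GC correction without WT replicate 4, an alternative added after the data were seen, 6 and 4. An adjusted p under 0.01 gave 3 and 7. Leaving out 1 library gave 3 to 7 higher and 8 to 12 lower members, the fewest rises being without C2-/- replicate 2 (3) and without WT replicate 2 (4). The other settings gave 6 to 8 higher and 8 to 15 lower. The replicate block alone gave 7 higher and 12 lower, with *Slc25a17* lost (1.17) and *Slc25a20* (-0.81) and *Slc25a26* (0.75) gained, although same-numbered libraries are not known to be paired. Log2 changes of the named members that turned sign under GC correction were *Slc25a11* (0.39), *Slc25a23* (0.60), *Slc25a28* (0.60), *Slc25a32* (-0.34), *Slc25a42* (0.12) and *Slc25a45* (0.52). With the replicate block or without WT replicate 4 added to the GC correction these were 0.48, 0.92, 0.54, -0.29, 0.09 and 0.83, and *Slc25a36* was -0.10. Small changes that turned sign elsewhere were those of *Slc25a16* (0.04 with median centring, 0.10 with quality weights, 0.09 with the replicate block), *Slc25a27* (-0.24 with quality weights, -0.09 with voom and the replicate block, 0.00 with thinned reads), *Slc25a33* (-0.09 with the replicate block), *Slc25a45* (0.14) and *Slc25a47* (0.03) with quantile normalization. Leaving out 1 library turned *Slc25a14* (range -1.62 to 0.12; 0.12 without C2-/- replicate 3), *Slc25a16* (-0.35 to 0.09), *Slc25a27* (-0.28 to 0.16) and *Slc25a33* (-0.22 to 0.48). Among the pairs, GC correction turned *Slc25a4* minus *Slc25a5* (0.31; 0.27 with quantile normalization), *Slc25a28* minus *Slc25a37* (0.49) and *Slc25a33* minus *Slc25a36* (0.62), and it weakened *Slc25a39* minus *Slc25a40* (-0.51) and *Slc25a24* minus *Slc25a25* (1.28). With thinned reads the difference of the latter pair was 2.90, close to the 2.92 as deposited, but its unadjusted exact permutation p was no longer at the smallest possible value. The cause of these moves was not tested. Calls lost under settings other than GC correction, leaving out a library or a stricter p were those of *Slc25a4* (no trend), *Slc25a10* (quantile normalization), *Slc25a17* (quality weights, replicate block) and *Slc25a25* (median centring, no trend, voom). Calls gained were those of *Slc25a24* (median centring, quantile normalization, prior count of 2, no trend, voom), *Slc25a20* (quantile normalization, mean log2 value of at least 3, quality weights, voom), *Slc25a51* (quantile normalization, quality weights), *Slc25a26* (quality weights), *Slc25a1* (voom), and *Slc25a11* and *Slc25a12* (quantile normalization), besides those of the replicate block above and those gained with no fold threshold. Count models (edgeR, DESeq2) were planned but not run, and voom on the recovered reads was the count-based alternative. Depth limits the members with few C2-/- reads, since 3 reads stood at 0.621 to 1.12 CPM in those libraries.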
